A study of Mus musculus with 3 samples.

Results

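The endothelin and nitric oxide vasomotor axis was followed here as 7 genes, taken by exact symbol from the 55450 features of the count tables, where each symbol matched 1 feature. The members are Edn1, Ece1, Ednra, Ednrb, Nos3, Gucy1a1 and Gucy1b1. Single cells of mouse pancreas were profiled with the 10x Chromium 3-prime kit in 3 libraries, 1 per group, which also share the tissue and the protocol. The diabetic exercise library comes from diabetic mice trained on a treadmill, and the diabetic sedentary library from diabetic mice without training. The third library is sedentary and carries the treatment label none. According to the design text the diabetic animals were male db/db mice, a strain without functional leptin receptor that becomes obese and diabetic, and training began at 6 weeks of age. The sources used here give neither the genotype nor the age of the animals behind the library labelled none, nor the number of animals behind any library.

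Endothelin-1 is a vasoconstrictor peptide that endothelial cells release towards the vessel wall. Endothelin-converting enzyme 1, the product of Ece1, cuts its precursor to the active form. The peptide acts on a pair of receptors. EDNRA on smooth muscle drives contraction, and EDNRB on endothelial cells promotes nitric oxide release and clears the peptide. Nitric oxide made by endothelial nitric oxide synthase, the product of Nos3, diffuses to neighbouring mural cells. There it activates soluble guanylyl cyclase, a heterodimer of the Gucy1a1 and Gucy1b1 products, and the cyclic GMP that forms relaxes the cell.

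All 7 identifiers match the GENCODE M21 annotation, in which each is a protein-coding gene. Edn1 (ENSMUSG00000021367) lies on the plus strand at chr13:42301476-42307990 of GRCm38. The cyclase genes Gucy1b1 (ENSMUSG00000028005) and Gucy1a1 (ENSMUSG00000033910) are neighbours on the minus strand of chromosome 3, at chr3:82032006-82074689 and chr3:82092427-82145789. They lie 17737 bases apart with 0 annotated genes between them. Nos3 (ENSMUSG00000028978, chr5:24364810-24384474, plus strand) overlaps Atg9b and Gm15587 on the other strand, and the sources used here do not say whether counting used strand. Endothelial-like cells held 4 UMIs of Atg9b in the exercise library, 6 in the diabetic sedentary library and 1 in the library labelled none, and 0 of Gm15587. Ece1 (ENSMUSG00000057530) lies at chr4:137862237-137965229 (plus), Ednra (ENSMUSG00000031616) at chr8:77663031-77724464 (minus) and Ednrb (ENSMUSG00000022122) at chr14:103814625-103844402 (minus).

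The promoters of Edn1, Ednrb and both cyclase subunits are printed, as differences of these genes between libraries are among those described below. RefSeq entries on GRCm38.p6 were found for 6 of the 7 genes (Nos3 had none) and span 250 bases before to 50 after the start, 5′ to 3′ on the gene's strand. Capitals mark the motifs searched on both strands. The AP-1 site was spelled TGANTCA and its variant TGACTAA. The GATA site was searched as AGATAA, and the GC box was searched as GGGCGG. The CCAAT box was searched by the letters ATTGG, and the KLF site was searched by the letters CACCC. The entries are Edn1 at chr13:42301226-42301525 (plus), Ednrb at chr14:103843652-103843951 (minus), the first of 2 Gucy1a1 starts at chr3:82145601-82145900 (minus) and Gucy1b1 at chr3:82074662-82074961 (minus).
Edn1: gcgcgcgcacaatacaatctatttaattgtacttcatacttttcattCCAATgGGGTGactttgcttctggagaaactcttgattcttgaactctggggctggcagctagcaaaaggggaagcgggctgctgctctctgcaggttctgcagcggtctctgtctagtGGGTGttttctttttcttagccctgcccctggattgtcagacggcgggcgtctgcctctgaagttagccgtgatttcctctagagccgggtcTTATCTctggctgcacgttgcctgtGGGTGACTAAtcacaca
Ednrb: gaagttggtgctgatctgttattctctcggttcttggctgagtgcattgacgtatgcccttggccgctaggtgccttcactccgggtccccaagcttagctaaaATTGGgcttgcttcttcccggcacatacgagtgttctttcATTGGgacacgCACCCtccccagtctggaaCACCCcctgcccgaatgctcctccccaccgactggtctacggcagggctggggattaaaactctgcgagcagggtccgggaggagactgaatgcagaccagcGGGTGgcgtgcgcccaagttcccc
Gucy1a1: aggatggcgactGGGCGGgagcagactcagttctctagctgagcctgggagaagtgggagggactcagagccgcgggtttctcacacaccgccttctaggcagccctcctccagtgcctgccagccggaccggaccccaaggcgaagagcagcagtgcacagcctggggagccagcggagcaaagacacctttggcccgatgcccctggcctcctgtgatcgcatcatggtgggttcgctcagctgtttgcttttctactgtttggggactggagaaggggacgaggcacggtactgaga
Gucy1b1: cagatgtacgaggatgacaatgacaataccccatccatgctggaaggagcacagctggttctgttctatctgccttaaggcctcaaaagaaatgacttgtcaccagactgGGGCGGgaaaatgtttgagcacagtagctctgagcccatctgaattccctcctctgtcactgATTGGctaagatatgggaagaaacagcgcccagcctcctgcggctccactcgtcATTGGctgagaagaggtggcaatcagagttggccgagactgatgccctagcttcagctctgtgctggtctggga

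The Edn1 window held the AP-1 variant TGACTAA at position 37, counted from 1 at the start with the base before it as -1. That motif is present in 2.35% of the 32851 promoter windows of this length. The same window held a GATA site on the other strand at position 9 (11.2% of windows), a CCAAT box at -203 (37.4%) and KLF sites at -197, -84 and 34 (57.5%), the last of which overlaps the AP-1 variant. Gucy1b1 and Ednrb each held 2 CCAAT boxes, a number reached by 11.7% of windows, at -78 and -24 in Gucy1b1 and at -146 and -106 in Ednrb. Ednrb also held 3 KLF sites, at -95, -76 and 27. GC boxes (35.7% of windows) were found at -140 in Gucy1b1 and at -238 in Gucy1a1, and the Gucy1a1 window held 0 CCAAT boxes. No AP-1 site TGANTCA (7.81% of windows) was found in the 4 windows. A match describes letters and does not show that a factor binds there.

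Library depth and makeup differed. The exercise library held 45209034 UMIs in 18433 barcodes (median 1887 per barcode), the diabetic sedentary library 80185752 in 12743 (median 4640) and the library labelled none 54128454 in 9958 (median 3952). Median mitochondrial shares were 7.0%, 2.20% and 0.708% in that order. Between 32 and 61 barcodes were shared by any pair of libraries. After filtering, 15069, 11019 and 8711 barcodes were kept in the same order. The members were read mainly in endothelial-like cells (380 in exercise, 553 in diabetic sedentary, 124 in none), mural-like cells (86, 140 and 44) and fibroblast-like cells (328, 536 and 297), named from their markers. Acinar cells dominate pancreas tissue, and genes of acinar enzymes gave 38.9%, 37.3% and 54.1% of the UMIs of endothelial-like cells and 36.2%, 44.8% and 66.3% of those of mural-like cells in that order. Mitochondrial shares were 7.30%, 3.90% and 1.06% in endothelial-like and 8.03%, 4.17% and 1.13% in mural-like cells, and the part of these differences in the results was not tested.

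Levels are given as CPM, the UMIs of a gene per 1e6 UMIs of all cells of a class in a library, with the class total scaled by TMM factors computed within that class. For a sub-cluster or a single cluster, the total of its own cells was scaled by the factor of the whole class. No factor was computed within it, so differences in acinar RNA inside a sub-cluster were not adjusted for. Brackets hold exact 95% Poisson intervals, which cover counting error only. With 1 library per group no test between groups could be made, and what differs between libraries cannot be told apart from what differs between groups. The comparison of exercise with diabetic sedentary and that of diabetic sedentary with none share a library. At least 20 UMIs over both diabetic libraries were held by 6 of the 7 members in endothelial-like cells, 4 in mural-like cells and 5 in fibroblast-like cells.

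**Figure D1:**
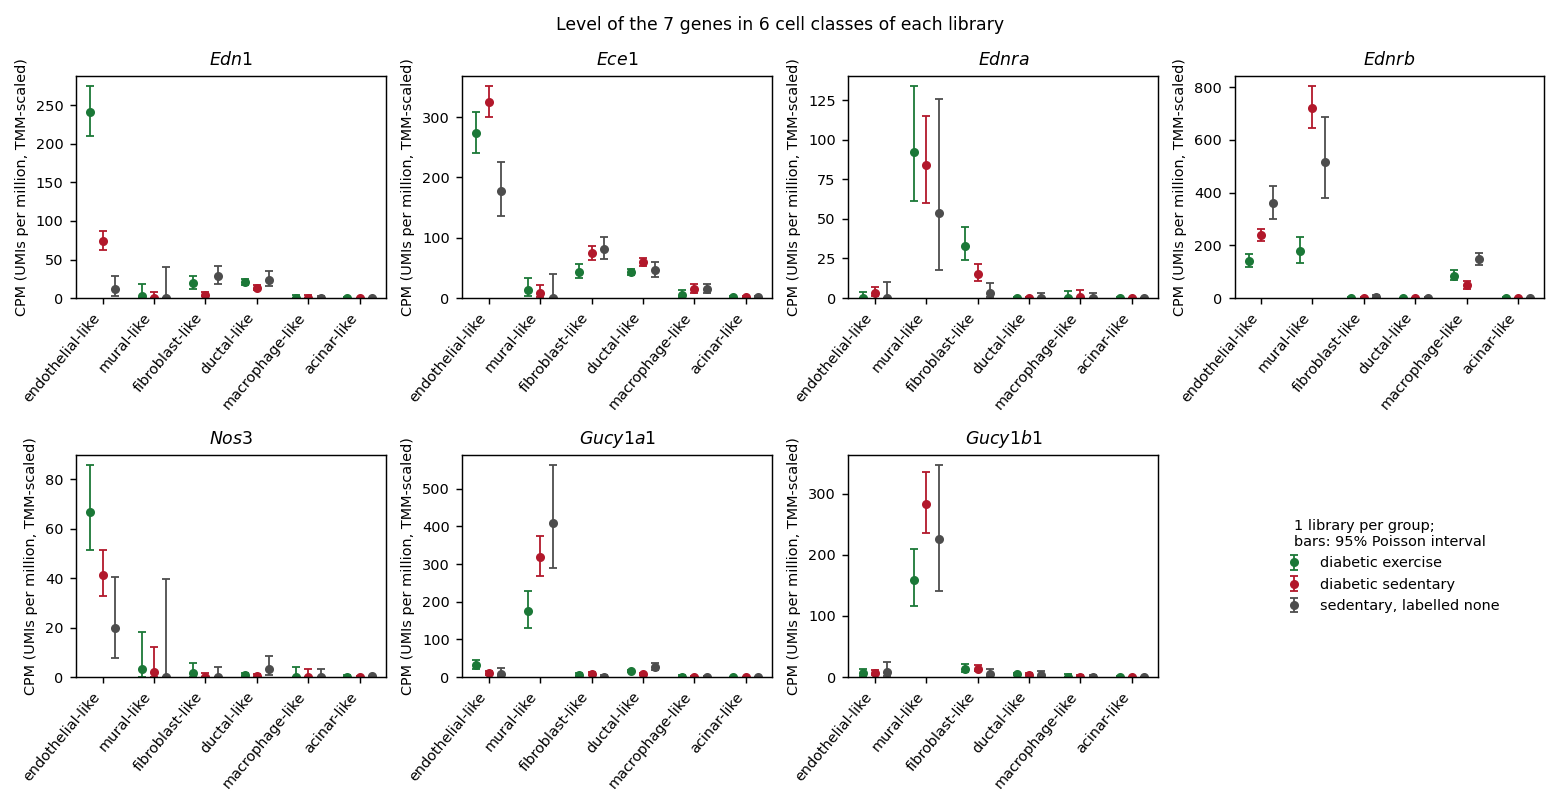
Level of each gene (CPM, y axis from 0) in 6 cell classes (x axis) of the diabetic exercise, diabetic sedentary and none libraries. Points are sums over the cells of a class and bars are 95% Poisson intervals. Edn1, Ece1 and Nos3 peak in endothelial-like cells of both diabetic libraries and Ednra, Gucy1a1 and Gucy1b1 in mural-like cells, while Ednrb is shared by mural-like, endothelial-like and macrophage-like cells.

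The ligand gene Edn1 had its highest CPM in endothelial-like cells in the diabetic libraries. Endothelial-like cells held 227 Edn1 UMIs in the exercise library, 144 in the diabetic sedentary library and 4 in the library labelled none. This gave 241 CPM (211 to 274) in exercise, 74.0 (62.4 to 87.2) in diabetic sedentary and 11.2 (3.06 to 28.7) in none, and these intervals do not overlap. Edn1 in endothelial-like cells was 3.26-fold higher in exercise than in diabetic sedentary (2.63 to 4.04), where 4.82% of 8178 genes with at least 20 UMIs were at least 2-fold higher. Edn1 and Gucy1a1 were the 2 of 6 measured members past 2-fold there, and with the sub-clusters described below weighted as in diabetic sedentary their ratios were 1.65 and 1.16, so that neither was past 2-fold. Edn1 was 6.60-fold higher in diabetic sedentary than in none (2.52 to 24.5, 11.8% of 7335 genes at least 2-fold higher), a ratio that rests on 4 UMIs in 3 cells of the library labelled none. In exercise 58 of 380 endothelial-like cells held an Edn1 UMI, in diabetic sedentary 60 of 553 and in none 3 of 124. A single exercise cell held 55 of the 227 UMIs. With the cell of most Edn1 UMIs left out of each library, the ratio of exercise to diabetic sedentary was 2.75 (2.18 to 3.48).

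Detection depends on depth, so each cell was also thinned to 1000 UMIs. Edn1 was then detected in 10.3% of 321 endothelial-like cells in exercise (7.18 to 14.1), in 5.58% of 520 in diabetic sedentary (3.77 to 7.91) and in 1.69% of 118 in none (0.206 to 5.99). Shallower cells were left out, 59 in exercise, 33 in diabetic sedentary and 6 in none. In acinar-like cells, which serve as background, thinned shares were 0.151%, 0.0213% and 0% in that order, the last of which has an upper limit of 0.0601%. The Poisson ratio of exercise to diabetic sedentary on thinned cells was 2.28 (1.51 to 3.44).

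Edn1 had other sources, and in the library labelled none they held most of its UMIs. Fibroblast-like cells had 19.4 CPM (12.4 to 28.9) in exercise, 4.51 (2.16 to 8.30) in diabetic sedentary and 28.6 (18.9 to 41.6) in none. Ductal-like cells, which line the ducts that drain the acini, had 20.9 CPM (17.5 to 24.8) in exercise, 13.3 (10.5 to 16.6) in diabetic sedentary and 24.1 (16.1 to 34.5) in none. In both classes the diabetic sedentary library was lowest, and the exercise and none intervals overlap. A ductal-like cluster led by Spp1 held 859 cells in exercise, 603 in diabetic sedentary and 205 in none. The other, led by Onecut2, held 314, 181 and 1. Edn1 in the Spp1-led cluster was 14.9 CPM in exercise, 13.5 in diabetic sedentary and 24.1 in none. Exercise over diabetic sedentary was 1.10 there (0.754 to 1.62). In the Onecut2-led cluster that ratio was 2.30 (1.37 to 4.09), from 29.5 and 12.8 CPM. Of all Edn1 UMIs in kept cells, endothelial-like cells held 54.6% of 416 in exercise, 60.0% of 240 in diabetic sedentary and 6.67% of 60 in none. Ductal-like cells held 32.2% in exercise, 32.5% in diabetic sedentary and 48.3% in none, and fibroblast-like cells 5.77%, 4.17% and 45.0% in that order. In none the order of classes was fibroblast-like, ductal-like and endothelial-like, and neighbours in it have overlapping intervals. In the diabetic libraries endothelial-like cells stood above ductal-like cells without overlap.

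**Figure D2:**
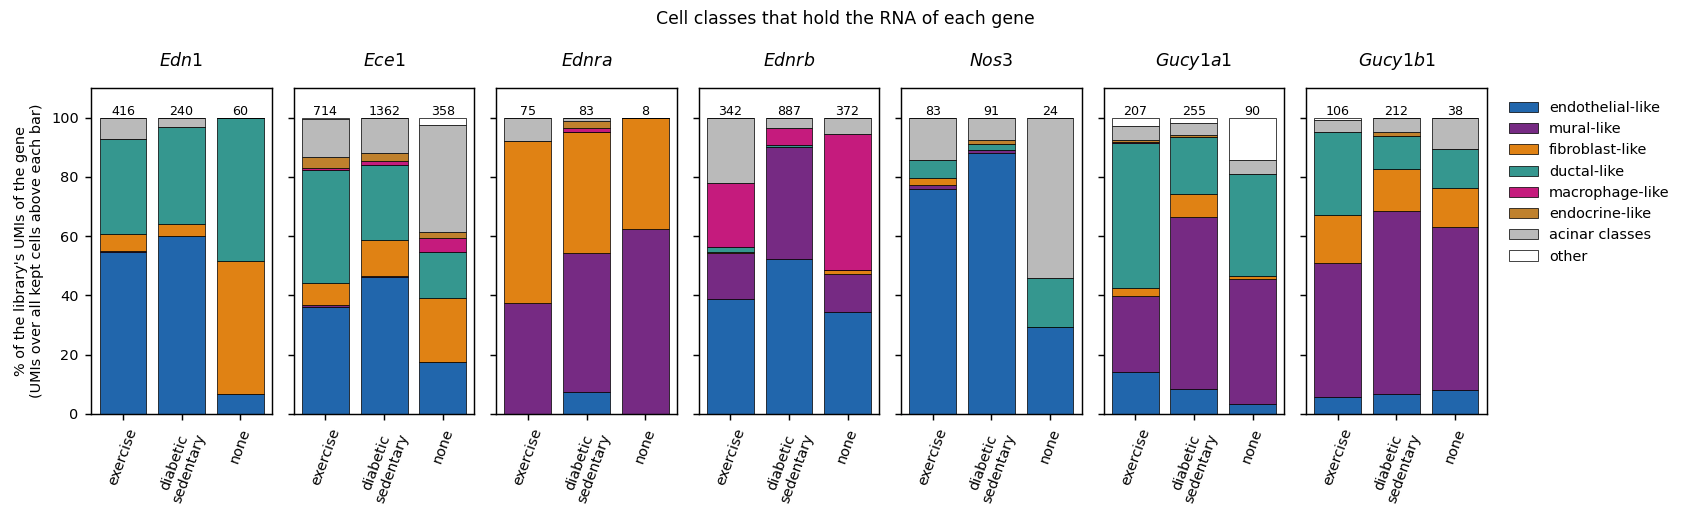
Share of the UMIs of each gene (y axis, percent of the UMIs in all kept cells of a library) held by each cell class, with exercise left, diabetic sedentary in the middle and none right. Numbers above the bars are the UMIs of the gene in that library. Endothelial-like cells hold 54.6%, 60.0% and 6.67% of Edn1 in that order. The shares move with the number of cells of each class in a library.

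Within endothelial-like cells, clustering without the listed genes gave 4 sub-clusters. Sub-cluster 1 had the highest sum of capillary markers (26688 CPM) and was led by Rgcc and Gpihbp1 together with haemoglobin genes. Sub-cluster 2 was led by acinar genes, with a median acinar share of 62.8%. Sub-cluster 3 was led by Mgp, Cytl1, Vwf and Bgn, 4 large-vessel markers, and by Glycam1 and Madcam1, genes of high endothelial venules, and is called large-vessel-like. Sub-cluster 4 was lymphatic-like, with 19 cells in all. The large-vessel-like cells numbered 71 in exercise, 24 in diabetic sedentary and 2 in none. Sub-cluster 1 numbered 135 in exercise, 389 in diabetic sedentary and 70 in none. Summed large-vessel markers over all endothelial-like cells were 4714 CPM in exercise, 1245 in diabetic sedentary and 1041 in none, whereas capillary markers were 11308, 19515 and 14486 CPM in the same order.

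Edn1 was highest in the large-vessel-like cells, with 803 CPM (689 to 931) in exercise and 233 (155 to 337) in diabetic sedentary, a ratio of 3.45 (2.30 to 5.34). With the cell of most Edn1 UMIs left out of each library this ratio was 3.37 (2.09 to 5.71). In capillary-marker-rich sub-cluster 1 Edn1 was 101 CPM (72.5 to 138) in exercise, 86.1 (70.4 to 104) in diabetic sedentary and 23 (6.27 to 59.0) in none. The ratio of exercise to diabetic sedentary there was 1.18 (0.797 to 1.71), an interval that includes 1. In acinar-RNA-rich sub-cluster 2 it was 31.2 CPM in exercise and 19.3 in diabetic sedentary (ratio 1.62, 0.616 to 4.19). Weighting 3 sub-clusters as in the diabetic sedentary library gave an Edn1 ratio of 1.65, beside 3.22 for the same cells unweighted. The large-vessel-like cells held 177 of the 227 endothelial Edn1 UMIs in exercise and 28 of 144 in diabetic sedentary.

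**Figure D3:**
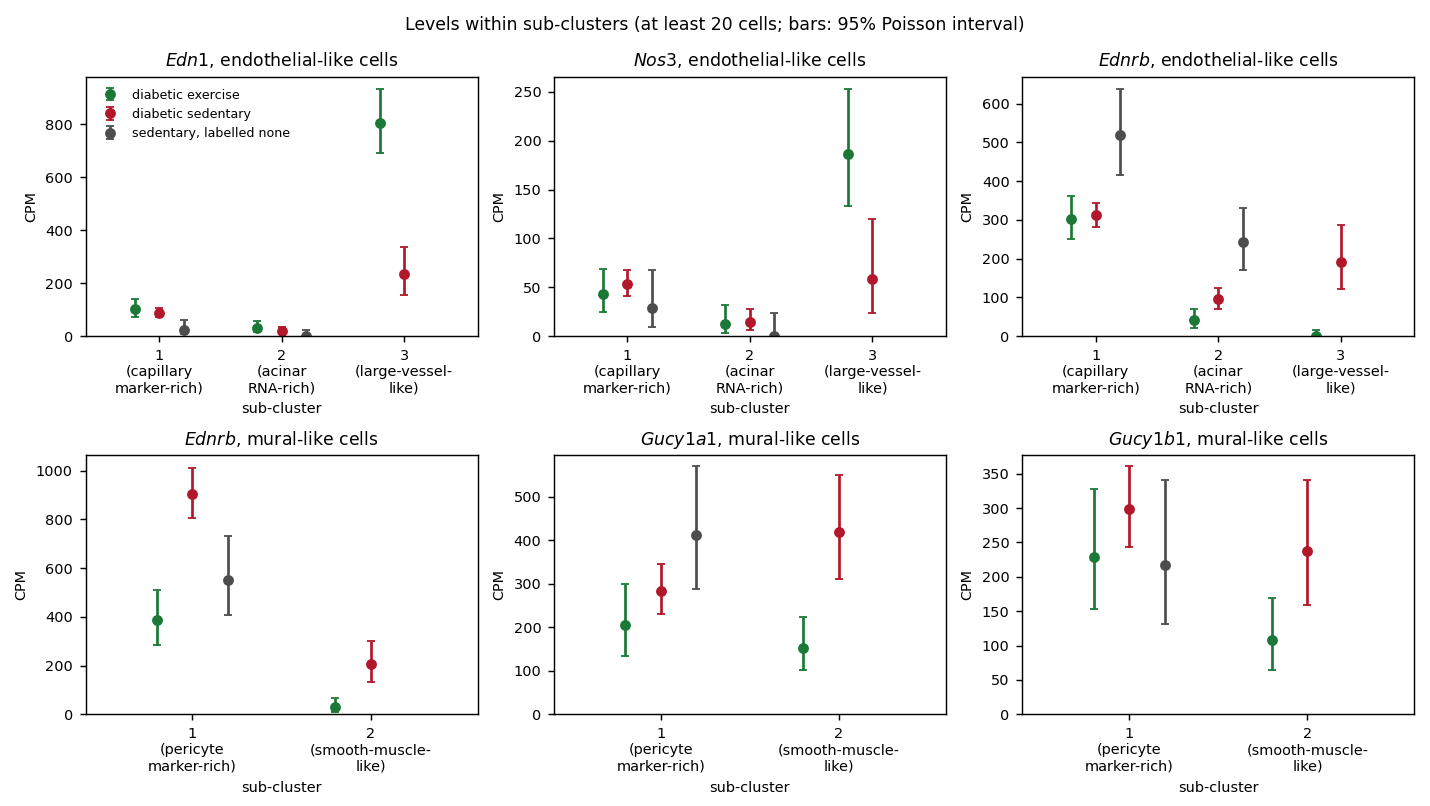
Levels (CPM, y axis from 0) of 6 gene and class pairs within sub-clusters (x axis) of at least 20 cells, with exercise left of diabetic sedentary and none. Bars are 95% Poisson intervals. Edn1 reads 803 CPM in exercise and 233 in diabetic sedentary in large-vessel-like cells, against 101 and 86.1 in sub-cluster 1, and mural Ednrb is lower in exercise than in diabetic sedentary in both sub-clusters.

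Of all Nos3 UMIs, endothelial-like cells held 75.9% of 83 in exercise, 87.9% of 91 in diabetic sedentary and 29.2% of 24 in none. Nos3 had 63 UMIs there in exercise, 80 in diabetic sedentary and 7 in none, or 66.9 CPM (51.4 to 85.6) in exercise, 41.1 (32.6 to 51.2) in diabetic sedentary and 19.6 (7.90 to 40.5) in none. Exercise stood to diabetic sedentary at a ratio of 1.63 (1.15 to 2.29), and that of diabetic sedentary to none was 2.09 (0.971 to 5.38), which includes 1. In none acinar-like cells held 12 of the 24 UMIs, at 0.266 CPM over 6180 cells. Outside the acinar classes, no other class held more than 5 Nos3 UMIs in any library. In large-vessel-like cells Nos3 was 186 CPM (134 to 252) in exercise and 58.3 (23.4 to 120) in diabetic sedentary, a ratio of 3.19 (1.42 to 8.44). Without large-vessel-like cells that carried at least 3 markers of mural or fibroblast cells, this ratio was 2.37 (0.974 to 6.94). In sub-cluster 1 Nos3 was 43.1 CPM in exercise and 53.3 in diabetic sedentary (ratio 0.809, 0.444 to 1.40). Weighting the sub-clusters as in diabetic sedentary gave a ratio of 1.03. Thinned to 1000 UMIs, 5.92% of endothelial-like cells in exercise and 5.19% in diabetic sedentary held a Nos3 UMI, with overlapping intervals (3.60 to 9.09 and 3.45 to 7.46).

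Ece1, whose product activates the ligand, was read in several classes. Endothelial-like cells had 273 CPM (240 to 308) in exercise, 324 (300 to 351) in diabetic sedentary and 177 (136 to 226) in none. In endothelial-like cells Ece1 had a ratio of exercise to diabetic sedentary of 0.841 (0.725 to 0.974) and a ratio of diabetic sedentary to none of 1.84 (1.41 to 2.42). Before thinning, Ece1 was detected in 36.8% of endothelial-like cells in exercise, 58.0% in diabetic sedentary and 34.7% in none. Thinned to 1000 UMIs, the shares were 22.7% in exercise (18.3 to 27.7), 27.9% in diabetic sedentary (lower limit 24.1) and 16.1% in none (lower limit 9.98), and the intervals of exercise and diabetic sedentary overlap. In fibroblast-like cells it was 43.7 CPM (32.8 to 57.0) in exercise, 74.0 (63.1 to 86.3) in diabetic sedentary and 81.6 (64.4 to 102) in none. Ductal-like cells had 42.7 CPM (37.7 to 48.0) in exercise, 59.3 (53.2 to 65.9) in diabetic sedentary and 46.4 (35.1 to 60.3) in none. Both classes lay below endothelial-like cells without overlap in each library, and their own intervals overlap in the diabetic libraries. Endocrine-like cells, 15 in exercise, 67 in diabetic sedentary and 6 in none, had 94.6, 64.1 and 92.1 CPM in that order. Mural-like cells held only 4 Ece1 UMIs in exercise, 4 in diabetic sedentary and 0 in none. Within endothelial sub-clusters 1, 2 and 3 the ratio of exercise to diabetic sedentary was 0.891, 1.02 and 0.842, each with an interval that includes 1.

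The receptor gene Ednrb was the 1 of 4 measured members past 2-fold between exercise and diabetic sedentary in mural-like cells. Mural-like cells held 54 Ednrb UMIs in exercise, 335 in diabetic sedentary and 48 in none. Their level was 178 CPM (134 to 233) in exercise, 721 (646 to 803) in diabetic sedentary and 517 (381 to 686) in none. Ednrb in mural-like cells was 0.247-fold in exercise relative to diabetic sedentary (0.182 to 0.330), where 9.33% of 3505 genes were at least 2-fold lower. Of these UMIs, 21 in exercise, 152 in diabetic sedentary and 3 in none lay in the 28, 50 and 5 cells with at least 3 markers of endothelial or fibroblast cells, and without those cells the ratio of exercise to diabetic sedentary was 0.288 (0.192 to 0.418). The ratio of diabetic sedentary to none was 1.39 (1.03 to 1.93), and 0 of the 4 measured members passed 2-fold in that comparison in mural-like cells (17.7% of 2523 genes at least 2-fold higher, 7.17% at least 2-fold lower). Without TMM scaling 3 of the 4 were past 2-fold, Ednrb at 2.28 (1.68 to 3.16), Ednra at 2.55 (1.004 to 8.29) and Gucy1b1 at 2.04 (1.28 to 3.40). In that setting the median log2 ratio over all 2523 genes was 0.709, and the share of them past 2-fold was not counted. After thinning, 17.1% of 76 mural-like cells held an Ednrb UMI in exercise (9.43 to 27.5), 48.9% of 133 in diabetic sedentary (40.1 to 57.7) and 23.3% of 43 in none (11.8 to 38.6). The thinned exercise and diabetic sedentary intervals do not overlap. Cells under 1000 UMIs were left out, 10 in exercise, 7 in diabetic sedentary and 1 in none.

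Mural-like cells fell into a sub-cluster with the highest pericyte markers, led by Steap4, Hsd11b1 and Kcnj8, and a smooth-muscle-like one led by Acta2, Tagln, Cnn1 and Myh11. The pericyte-marker-rich sub-cluster held 49 cells in exercise, 112 in diabetic sedentary and 42 in none, and the smooth-muscle-like one 37, 28 and 2. Pericyte markers in mural-like cells summed to 2387 CPM in exercise, 6259 in diabetic sedentary and 6198 in none, and smooth muscle markers to 10776, 6291 and 1585 CPM in the same order. Ednrb in the pericyte-marker-rich cells was 386 CPM (286 to 511) in exercise, 905 (807 to 1012) in diabetic sedentary and 550 (406 to 730) in none. Within them the ratio of exercise to diabetic sedentary was 0.427 (0.309 to 0.578). In smooth-muscle-like cells it was 28.4 CPM (9.22 to 66.3) in exercise and 205 (133 to 302) in diabetic sedentary, a ratio of 0.139 (0.0415 to 0.369). Weighted to the diabetic sedentary mix, Ednrb was 0.405-fold. The exercise level was below that of diabetic sedentary without overlap within each of the 2 sub-clusters.

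Endothelial-like cells held Ednrb at 140 CPM (117 to 166) in exercise, 238 (217 to 261) in diabetic sedentary and 359 (300 to 427) in none. These 3 intervals do not overlap, with exercise lowest. Exercise over diabetic sedentary gave 0.589 (0.481 to 0.716), and that of diabetic sedentary to none was 0.663 (0.544 to 0.812). Without TMM scaling the second of these was 0.894 (0.733 to 1.10), which includes 1. Within sub-cluster 1 Ednrb was 302 CPM (250 to 361) in exercise, 312 (281 to 345) in diabetic sedentary and 518 (417 to 637) in none. The ratio of exercise to diabetic sedentary there was 0.969 (0.782 to 1.19), and the weighted ratio over sub-clusters was 0.856. In acinar-RNA-rich sub-cluster 2 Ednrb was 40.6 CPM (21.6 to 69.4) in exercise, 94.8 (71.2 to 124) in diabetic sedentary and 242 (171 to 332) in none. Its ratio of exercise to diabetic sedentary in sub-cluster 2 was 0.428 (0.214 to 0.795). Large-vessel-like cells held 0 Ednrb UMIs in 71 exercise cells. In diabetic sedentary 6 of 24 cells held 23 UMIs, 7 of them in a single cell, or 191 CPM. With a floor of 3 UMIs in place of 0, the exercise level was 14.1-fold lower, and the exact interval of the ratio reached up to 0.0949. Without the cell of most Ednrb UMIs, 16 UMIs remained in diabetic sedentary. Against the floor this was 10.4-fold, and the interval reached up to 0.133. With cells carrying at least 3 mural or fibroblast markers left out, 7 UMIs remained in 19 diabetic sedentary cells. The exercise level was then 5.09-fold lower against the floor, with the interval reaching up to 0.318.

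Macrophage-like cells were another site of Ednrb, with 84.8 CPM (66.7 to 106) in exercise, 48.2 (36.0 to 63.2) in diabetic sedentary and 147 (126 to 171) in none. The ratio of exercise to diabetic sedentary was 1.76 (1.22 to 2.56) there, above 1 where the mural and endothelial ratios were below it. An Ednrb UMI was held by 25 of 233 macrophage-like cells in exercise and 27 of 238 in diabetic sedentary. Thinned to 1000 UMIs, the shares were 7.07% (3.92 to 11.6) and 5.33% (2.79 to 9.13), with overlapping intervals. Of all Ednrb UMIs, macrophage-like cells held 21.9% of 342 in exercise, 5.86% of 887 in diabetic sedentary and 45.7% of 372 in none. In exercise the mural and endothelial intervals overlap. In diabetic sedentary the order mural, endothelial and macrophage had no overlap. Ductal-like and acinar-like cells had at most 1.71 CPM in any library. Barcodes rich in acinar RNA, 11401 of those kept in exercise, had 3.03 CPM there and held 19.0% of its Ednrb UMIs.

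Ednra, the contractile receptor gene, was sparse, and mural-like and fibroblast-like cells held most of its UMIs. Mural-like cells held 28 Ednra UMIs in exercise, 39 in diabetic sedentary and 5 in none, or 92.4 CPM (61.4 to 134), 84.0 (59.7 to 115) and 53.9 (17.5 to 126) in that order. For mural Ednra the ratio of exercise to diabetic sedentary was 1.10 (0.652 to 1.84), an interval that includes 1. Mural-like cells with at least 3 endothelial or fibroblast markers held 19 of the 28 UMIs in exercise and 22 of the 39 in diabetic sedentary. In fibroblast-like cells Ednra was 33.1 CPM (23.8 to 45.0) in exercise, 15.3 (10.6 to 21.4) in diabetic sedentary and 3.18 (0.655 to 9.29) in none, and these 3 intervals do not overlap. The ratio of exercise to diabetic sedentary was 2.16 (1.34 to 3.51, with 3.92% of 9234 genes at least 2-fold higher). That of diabetic sedentary to none was 4.83 (1.52 to 24.6, with 6.61% of 8906 genes at least 2-fold higher), which rests on 3 UMIs in none and was 0.859 (0.123 to 9.49) after thinning to 1000 UMIs. The 41 exercise UMIs came from 14 cells and the 34 diabetic sedentary UMIs from 19. Cells with at least 3 mural or endothelial markers held 23 of the 41 and 19 of the 34. Without them the ratio of exercise to diabetic sedentary was 2.36 (1.12 to 5.04), and that of diabetic sedentary to none was 2.35 (0.665 to 12.7), which includes 1. Endothelial-like cells held 6 Ednra UMIs, all in diabetic sedentary cells that carried at least 3 mural or fibroblast markers.

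The cyclase subunit genes Gucy1a1 and Gucy1b1 had their highest CPM in mural-like cells in each of the 3 libraries. Gucy1a1 in mural-like cells was 175 CPM (131 to 229) in exercise, 319 (269 to 374) in diabetic sedentary and 410 (290 to 562) in none. Gucy1b1 was 158 CPM (117 to 210) in exercise, 282 (236 to 335) in diabetic sedentary and 226 (140 to 346) in none. Their ratios of exercise to diabetic sedentary were 0.549 (0.393 to 0.756) for Gucy1a1 and 0.562 (0.395 to 0.788) for Gucy1b1, so neither reached the 2-fold line. Cells with at least 3 endothelial or fibroblast markers, 28 in exercise and 50 in diabetic sedentary, held many of these UMIs. In that order they held 20 of 53 and 77 of 148 Gucy1a1 UMIs, and 19 of 48 and 63 of 131 Gucy1b1 UMIs. On cells thinned to 1000 UMIs the Gucy1a1 ratio was 0.818 (0.458 to 1.41), which includes 1. The ratios of diabetic sedentary to none were 0.778 (0.542 to 1.14) for Gucy1a1 and 1.25 (0.782 to 2.08) for Gucy1b1, both including 1, and the Gucy1a1 difference has the other sign without TMM scaling (log2 0.33). After thinning, 19.7% of mural-like cells in exercise (11.5 to 30.5) and 26.3% in diabetic sedentary (19.1 to 34.7) held a Gucy1a1 UMI. For Gucy1b1 the thinned shares were 18.4% in exercise (10.5 to 29.0) and 25.6% in diabetic sedentary (18.4 to 33.8), and both pairs of intervals overlap.

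In smooth-muscle-like cells Gucy1a1 was 153 CPM (101 to 223) in exercise and 418 (311 to 549) in diabetic sedentary, a ratio of 0.367 (0.221 to 0.596). Gucy1b1 there was 108 CPM (65.0 to 169) in exercise and 238 (159 to 341) in diabetic sedentary, a ratio of 0.454 (0.241 to 0.838). In pericyte-marker-rich cells Gucy1a1 was 205 CPM (134 to 300) in exercise, 283 (230 to 346) in diabetic sedentary and 413 (289 to 571) in none. Gucy1b1 in those cells was 229 CPM (153 to 328) in exercise, 298 (243 to 362) in diabetic sedentary and 218 (131 to 340) in none. Their ratios of exercise to diabetic sedentary within pericyte-marker-rich cells were 0.723 (0.450 to 1.12) and 0.767 (0.490 to 1.17), both including 1. Whether the ratio differs between the sub-clusters was not tested.

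Pooled over the libraries, the subunits did not appear in the same proportion outside mural-like cells. Over the 3 libraries Gucy1a1 gave 54.4% of the UMIs of the pair in mural-like cells (239 and 200 UMIs, exact binomial interval 49.7 to 59.2). In ductal-like cells it gave 75.4% (181 and 59 UMIs, 69.5 to 80.7), and in fibroblast-like cells 34.2% (27 and 52 UMIs, 23.9 to 45.7). Mesothelial-like cells held 23 Gucy1a1 UMIs and 0 of Gucy1b1. By library the ductal share was 77.1% in exercise, 67.1% in diabetic sedentary and 86.1% in none. The mural share was 52.5%, 53.0% and 64.4% in that order. The ductal share pools unlike clusters. The Spp1-led ductal cluster held 78 Gucy1a1 and 11 Gucy1b1 UMIs in exercise, 45 and 14 in diabetic sedentary and 31 and 5 in none. The Onecut2-led ductal cluster held 23 and 19 in exercise and 4 and 10 in diabetic sedentary, and had 1 cell in none. Ductal and mural intervals overlap in diabetic sedentary and in none, and fibroblast and mural intervals overlap in each library. These shares compare classes, since capture may differ between the 2 transcripts. Ductal Gucy1a1 was 15.8 CPM (12.9 to 19.2) in exercise, 8.37 (6.19 to 11.1) in diabetic sedentary and 25.7 (17.5 to 36.5) in none. Endothelial-like cells had 30.8 CPM of Gucy1a1 in exercise (20.6 to 44.2), 10.8 in diabetic sedentary (6.68 to 16.5) and 8.42 in none (1.74 to 24.6). Of these, large-vessel-like cells held 27 of 29 UMIs in exercise and 12 of 21 in diabetic sedentary, at 123 and 99.9 CPM (ratio 1.23, 0.601 to 2.66), and the ratio weighted over sub-clusters was 1.16.

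The comparison of exercise with none shares a library with each of the other comparisons. In it 5 members were measured in endothelial-like cells (at least 20 UMIs over both). Edn1 was 21.5-fold higher in exercise (8.27 to 79.5), Nos3 3.40-fold (1.56 to 8.81) and Gucy1a1 3.66-fold (1.13 to 18.8), beside 11.7% of 5614 genes at least 2-fold higher, and each ratio rests on 7 or fewer UMIs in none. Large-vessel-like cells numbered 71 in exercise and 2 in none. Over sub-clusters 1 and 2, weighted as in diabetic sedentary, the ratios were 5.04 for Edn1, 1.70 for Nos3 and 1.71 for Gucy1a1, so that only Edn1 of these 3 was past 2-fold. Endothelial Ednrb was 0.390-fold (0.304 to 0.502), where 6.96% of genes were at least 2-fold lower. In mural-like cells Ednrb was 0.345-fold (0.229 to 0.519) and Gucy1a1 0.427-fold (0.276 to 0.666), the 2 of 4 measured members at least 2-fold lower, beside 13.2% of 1709 genes, and 0 were at least 2-fold higher (21.8% of genes). Smooth-muscle-like cells numbered 37 in exercise and 2 in none, and within pericyte-marker-rich cells the ratio was 0.702 for Ednrb (0.462 to 1.07), which includes 1, and 0.497 for Gucy1a1 (0.288 to 0.846). Without TMM scaling these mural ratios were 0.619 (0.412 to 0.933) for Ednrb and 0.768 (0.497 to 1.20) for Gucy1a1. Fibroblast Ednra was 10.4-fold higher in exercise (3.33 to 52.6, from 41 UMIs and 3 UMIs) and Gucy1b1 2.59-fold (0.919 to 8.99), beside 7.09% of 7789 genes, and 0 of 4 measured members were at least 2-fold lower (5.97% of genes).

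**Figure D4:**
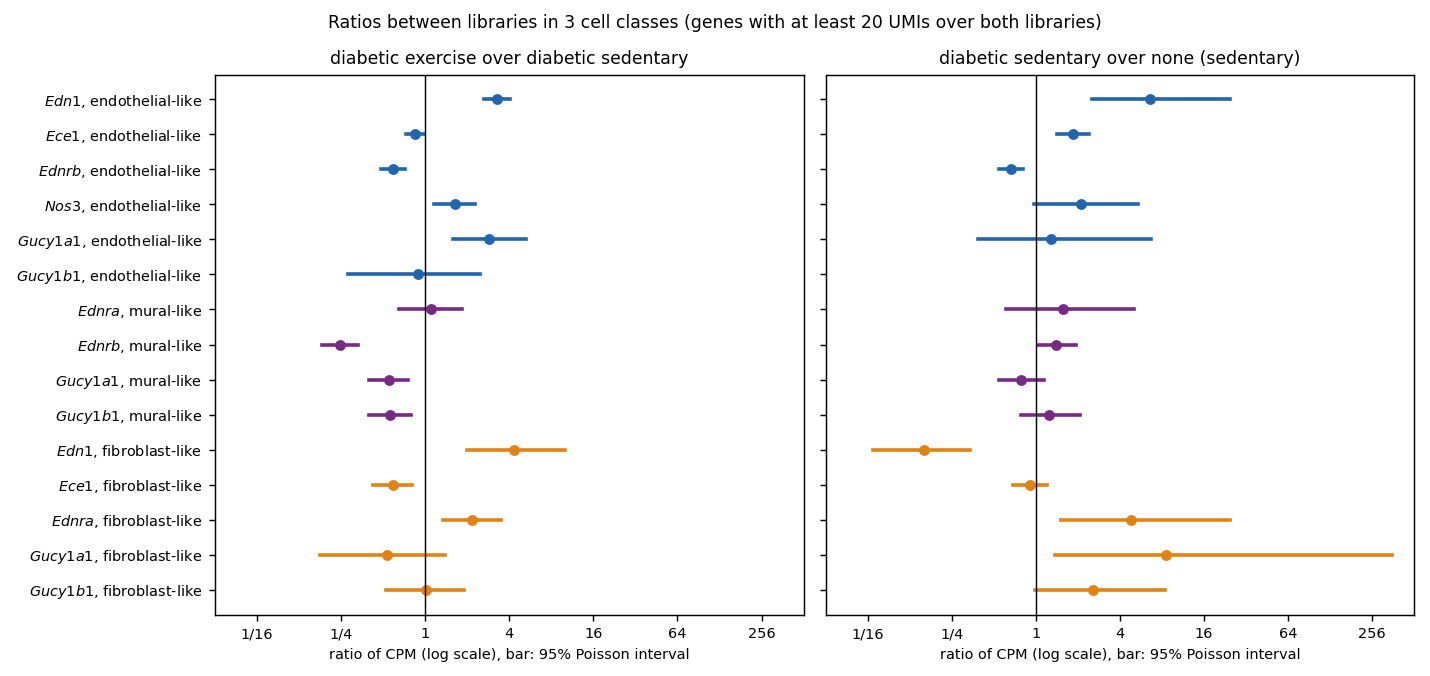
Ratio of CPM (x axis, log scale) for members with at least 20 UMIs over both libraries in 3 cell classes, exercise over diabetic sedentary on the left and diabetic sedentary over none on the right. Points are ratios, bars 95% Poisson intervals, and the line marks 1. On the left endothelial Edn1 lies at 3.26 and mural Ednrb at 0.247.

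Genes of contraction were set beside these results. Of 16 smooth muscle calcium and contraction genes, 13 had at least 20 UMIs over the mural-like cells of the diabetic libraries, with a median log2 ratio of exercise to diabetic sedentary of 0.24 against 0.01 over all genes. In this list 1 gene was at least 2-fold higher and 0 were at least 2-fold lower, beside 6.59% and 9.33% of all genes. Itpr1, the calcium release channel of the reticulum, was 152 CPM in exercise and 64.6 in diabetic sedentary (ratio 2.35, 1.45 to 3.86). Mylk, myosin light chain kinase, was 928 CPM in exercise and 586 in diabetic sedentary (1.58, 1.34 to 1.88), and Myl9, the light chain it phosphorylates, was 2205 and 1697 CPM (1.30, 1.17 to 1.44). Smooth muscle markers were 10776 CPM in exercise and 6291 in diabetic sedentary, pericyte markers 2387 and 6259, and smooth-muscle-like cells 37 of 86 and 28 of 140, and the part of this mix in the ratios was not tested. Of 10 genes of nitric oxide reception and cyclic GMP signalling, 8 were measured with a median log2 ratio of 0.09, and 0 passed 2-fold in either direction. Prkg1, the cyclic GMP-dependent kinase, was 95.7 CPM in exercise and 86.1 in diabetic sedentary (1.11, 0.665 to 1.84). Pde5a, which degrades cyclic GMP, was 178 CPM in exercise and 177 in diabetic sedentary (1.01, 0.703 to 1.44). The angiotensin receptor gene Agtr1a, itself among the leading genes of the pericyte-marker-rich sub-cluster, was 85.8 CPM in exercise and 235 in diabetic sedentary (0.366, 0.229 to 0.565).

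In mural-like cells 5 of the 13 contraction genes were at least 2-fold higher in diabetic sedentary than in none, beside 17.7% of all genes, and their median log2 ratio was 0.48 against 0.00 over all genes. Mylk was 586 CPM in diabetic sedentary and 216 in none (2.72, 1.72 to 4.52). Smooth muscle markers were 6291 CPM in diabetic sedentary and 1585 in none. The part that the cell mix has in these ratios was not tested.

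Of 14 genes of nitric oxide synthesis, 11 were measured in endothelial-like cells, with a median log2 ratio of exercise to diabetic sedentary of 0.15 against -0.01 over all genes. Only Nostrin, whose product binds the synthase and moves it off the membrane, was past 2-fold, at 39.3 CPM in exercise and 80.2 in diabetic sedentary (0.490, 0.333 to 0.705; 4.55% of all genes at least 2-fold lower). Cav1, the caveolar scaffold that holds the synthase inactive, was 377 CPM in exercise and 340 in diabetic sedentary (1.11, 0.972 to 1.26). Ddah2, which clears a methylarginine inhibitor of the enzyme, was 36.1 CPM in exercise and 58.1 in diabetic sedentary (0.621, 0.410 to 0.919). Capillary markers were 11308 CPM in exercise and 19515 in diabetic sedentary, and the part of the cell mix in these ratios was not tested. Between the diabetic sedentary library and none the same 11 genes had a median log2 ratio of 0.08, and Nos3, at 2.09 with an interval that includes 1, was the gene past 2-fold, beside 11.8% of all genes at least 2-fold higher. Its ratio ranged between 1.83 and 2.82 over 17 alternatives.

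Of 15 other vasoactive and flow genes, 10 were measured in endothelial-like cells, with a median log2 ratio of exercise to diabetic sedentary of -0.30. The prostacyclin enzymes stood at the upper end, the 2 genes at least 2-fold higher, beside 4.82% of all genes. Large-vessel markers were 4714 CPM in exercise and 1245 in diabetic sedentary, and their part in these ratios was not tested. Ptgis, prostacyclin synthase, was 41.4 CPM in exercise and 1.54 in diabetic sedentary, from 39 and 3 UMIs (26.8, 8.53 to 136). Ptgs1, the cyclooxygenase upstream of it, was 74.3 CPM in exercise and 35.5 in diabetic sedentary (2.09, 1.48 to 2.96). The flow-responsive factor gene Klf2 was 482 CPM in exercise and 710 in diabetic sedentary (0.678, 0.609 to 0.755), and Klf4 was 325 and 424 CPM (0.767, 0.670 to 0.875). Aplnr, the apelin receptor gene, was 22.3 CPM in exercise and 44.7 in diabetic sedentary (0.498, 0.294 to 0.810). Npr1, the membrane guanylyl cyclase that receives natriuretic peptides, was 59.4 CPM in exercise and 33.9 in diabetic sedentary (1.75, 1.20 to 2.54).

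In fibroblast-like cells all 10 nitric oxide reception genes were measured and 0 were past 2-fold between exercise and diabetic sedentary (4.18% of all genes at least 2-fold lower). Fibroblast Edn1 and Ednra were both at least 2-fold higher in exercise than in diabetic sedentary, at ratios of 4.30 (1.98 to 10.1) and 2.16, beside 3.92% of all genes. Cells with at least 3 mural or endothelial markers held 11 of the 24 exercise Edn1 UMIs and 3 of the 10 diabetic sedentary ones, and without them the Edn1 ratio was 3.66 (1.36 to 10.8). Between diabetic sedentary and none, 3 of 12 measured vasoactive genes were at least 2-fold lower, beside 3.97% of 8906 genes. Ptgs2, the inducible cyclooxygenase, was 24.4 CPM in diabetic sedentary and 179 in none (0.136, 0.0983 to 0.186), and Ace, angiotensin-converting enzyme, 88.9 and 264 CPM (0.337, 0.278 to 0.408). In the same comparison 0 members were at least 2-fold lower in endothelial-like cells (4.73% of genes), and in fibroblast-like cells Edn1 was the 1 of 5 that was, at 0.158-fold in diabetic sedentary relative to none (0.0681 to 0.336). The 3 members at least 2-fold higher there, beside 6.61% of genes, were Ednra, Gucy1a1 and Gucy1b1. Fibroblast Gucy1a1 was 9.03 CPM in diabetic sedentary and 1.06 in none, from 20 UMIs and 1 UMI (8.52, 1.36 to 353), and Gucy1b1 was 13.5 and 5.30 CPM (2.56, 0.982 to 8.44). Adm, the vasodilator adrenomedullin, was 166 CPM in diabetic sedentary and 77.3 in none (2.15, 1.67 to 2.80).

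Likeness of pattern was measured as Pearson's r of log2(CPM + 10) over 24 sums of a class in a library, each of at least 50 cells, among 12725 genes. The sums share libraries and acinar background, so r is a description. The genes most like Nos3 were Cyp1a1 (0.986), Pkn3 and Sox18, and those most like Gucy1b1 were Notch3 (0.976), Abcc9 and Cspg4, which are mural markers. For Gucy1a1 they were Slc12a2 (0.948), Chn1 and Rgs5, and for Ednra Npy1r (0.968), Tpm2 and B130024G19Rik. Ednrb, present in 3 classes, was most like Stom (0.928), Mtus1 and Cd93. Ece1 was most like Uaca (0.956), Cdc42bpb and Mcc, and Edn1 most like Slco2a1 (0.889), Bmp6 and Abcb1a.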

How the data were processed

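The authors deposited 1 matrix of raw UMI counts per library (55450 genes). Per the submitters' processing notes these came from Cell Ranger 7.1.0, while the matrix header names 6.1.2, and the sources used here give neither the alignment's genome build nor its strand setting. All 55450 identifiers match GENCODE M21 (GRCm38), which gave coordinates. Barcodes were kept from 500 UMIs and 200 genes upward and up to 20% mitochondrial UMIs. Scrublet's automatic threshold marked 0% as doublets, so the top 5% of scores per library were removed. Cells were clustered (scanpy 1.11.5, leidenalg 0.10.2, 2000 variable genes less 23 listed genes, 30 principal components, resolution 1) and named from their markers, with sub-clusters at resolution 0.5. A class was summed per library and divided by its total times the TMM factor, checked against edgeR 4.0.16. A sub-cluster was divided by its own total times the factor of its class. Ratios have conditional exact Poisson intervals, shares exact binomial (Clopper-Pearson) ones, all 95%. They cover counting error only. Log2 ratios add 0.5 to both counts. The floor is 3 counts per library. The ratio intervals and the TMM scaling were tested on simulated Poisson sums with known folds. That simulation had no extra spread between cells and did not include clustering. Genes named are the 7 members, list genes with at least 20 UMIs over both libraries compared, extremes first, and the 3 genes most like each member. The members and lists were chosen with earlier results of these data known.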

Additional observations from a re-analysis of the deposited data

Results flagged for a closer look

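Several genes differed between libraries in opposite directions in different cell classes, with intervals that leave out 1 on both sides. With 1 library per group, none of these differences between classes was tested. Values are log2 ratios of CPM.

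Edn1 differed by 2.56 between diabetic sedentary and none in endothelial-like cells, a higher level in diabetic sedentary, against -2.62 in fibroblast-like cells and -0.87 in ductal-like cells. The endothelial value rests on 4 UMIs in the library labelled none.

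Ednrb differed by 0.81 between exercise and diabetic sedentary in macrophage-like cells, against -0.76 in endothelial-like and -2.01 in mural-like cells. The macrophage value rests on 25 cells with an Ednrb UMI in exercise and 27 in diabetic sedentary, and thinned detection shares overlap. Weighted over sub-clusters as in diabetic sedentary, the endothelial value was -0.22 and the mural value -1.30. Between diabetic sedentary and none it differed by 0.47 in mural-like cells, against -0.60 in endothelial-like and -1.60 in macrophage-like cells.

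Gucy1a1 differed by 1.50 between exercise and diabetic sedentary in endothelial-like cells and by 0.91 in ductal-like cells, against -0.86 in mural-like cells. Weighted in the same way the endothelial value was 0.22, and large-vessel-like cells, 71 in exercise and 24 in diabetic sedentary, held 27 of the 29 and 12 of the 21 endothelial UMIs. Between diabetic sedentary and none it differed by 2.54 in fibroblast-like cells, from 20 UMIs and 1 UMI, against -1.63 in ductal-like cells. The fibroblast value was -0.10 with cells taken by marker UMIs.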

How the results depend on the processing

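Each of 42 log2 ratios was recomputed under up to 17 alternatives (674 values), 2 of them chosen after seeing the data: leaving out cells with at least 3 markers of another class, and leaving out the lymphatic-like sub-cluster. Of 246 values for the 15 ratios of Edn1 and Nos3 in endothelial-like cells and Ednrb, Gucy1a1 and Gucy1b1 in mural-like cells, 231 stayed within the main interval. Intervals against none are wide, so staying within them says little about stability. Over 17 alternatives endothelial Edn1 in exercise over none ranged from 5.04-fold to 32.7-fold.

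Weighting sub-clusters as in diabetic sedentary gave 0.72 for Edn1, 0.0365 for Nos3 and -1.30 for Ednrb in exercise over diabetic sedentary. For exercise over none it gave 2.33 for Edn1 over endothelial sub-clusters 1 and 2, without the large-vessel-like cells. In that comparison mural Ednrb was -0.51 from the pericyte-marker-rich sub-cluster alone, so nothing was weighted. Thinning to 1000 UMIs gave 1.19 for Edn1 and -0.27 for Gucy1a1 in exercise over diabetic sedentary, and 2.90 for Edn1, -0.20 for Gucy1a1 and 0.36 for Gucy1b1 in exercise over none. Without TMM scaling the values for exercise over none were -0.69 for Ednrb, -0.39 for Gucy1a1 and 0.31 for Gucy1b1, and for diabetic sedentary over none 1.18 for Ednrb and 0.33 for Gucy1a1. That setting moved the median of all genes by 0.71 in mural-like and 0.43 in endothelial-like cells in diabetic sedentary over none, by 0.85 and 0.42 in exercise over none, and by 0.14 and -0.01 in exercise over diabetic sedentary. Of ratios whose interval leaves out 1, 2 turned sign under an alternative, both in diabetic sedentary over none in fibroblast-like cells: Ednra was -0.37 after thinning, and Gucy1a1 was -0.10 with cells taken by marker UMIs. A further 8 ratios, all with an interval that includes 1, took both signs, among them Gucy1b1 in endothelial-like cells in exercise over diabetic sedentary (-1.61 to 1.29). The cause was not tested. No paired analysis was possible because each group has 1 library.

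With 44 mural-like and 124 endothelial-like cells, the library labelled none limits every ratio against it. Counts of 4 for Edn1 and 7 for Nos3 there leave intervals that span several fold.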
